A study of Mus musculus with 6 samples.

Results

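The genes described here are 9 transcription factors of muscle: the homeobox genes Six4 and Pitx3, the MyoD family (Myod1, Myog, Myf5 and Myf6) and the Mef2 family (Mef2a, Mef2c and Mef2d). Every probe set of the array whose annotation gives exactly 1 gene symbol, and that symbol is 1 of the 9, was taken, which gave 15 of 12488 probe sets and found all 9 of the 8251 genes named on the array. Six4, Pitx3 and Myog were already known to differ between the groups when the 9 genes were chosen, so differences between the groups are given here as descriptions, with no p-value for any of the 9. RNA came from the soleus of male mice, a calf muscle for standing that is rich in slow oxidative fibres, with 1 array per sample. The labels name 3 samples of BERKO mice, which lack estrogen receptor beta (the product of Esr2) and whose strain and knockout construct the labels do not give, and 3 samples of wild-type C57BL/6 mice. Ages, treatments and the number of animals behind a sample are not given, so the spread reported is that between these samples. Slow genes were bright, and fast genes differed in level. Tnni1, the slow troponin I, read 6723 to 8743 in knockout and 5789 to 7793 in wild-type soleus. The slow light chain Myl2 read 8641 to 9000 in knockout and 6462 to 9074 in wild-type soleus. Tnnt3, the fast troponin T, read 7007.6 to 7425.6 in knockout and 5756.5 to 6321 in wild-type soleus. Tnni2, the fast troponin I, read only 370.6 to 484 in knockout and 339.4 to 342.3 in wild-type soleus. These levels mark skeletal muscle and do not by themselves mark a slow one.

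The MyoD family are basic helix-loop-helix proteins that pair with E proteins, bind the E-box of muscle genes and drive the conversion of precursors into muscle fibres. The Mef2 family are MADS-box proteins that bind an AT-rich element in many of the same genes and are held back by class II histone deacetylases. Six4 and its relatives bind the MEF3 element with Eya cofactors. In adult rodents Myod1 RNA is known to be more abundant in fast muscle and Myog RNA in slow muscle, and Myog is known to increase after loss of the nerve.

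The Myog promoter holds letter matches for elements of the 3 families, that of Mef2 only in a looser form. The 250 bases upstream of its start are printed with the matches in capitals (RefSeq, GRCm38.p6, chr1:134289754-134290003, plus strand). Below it stand 30 bases around the MEF3 match of a Six4 promoter window (chr12:73113325-73113354, minus strand) and around the Mef2 match at a Mef2a start (chr7:67372841-67372870, minus strand), shown because they are elements that proteins of the same families bind.
Myog: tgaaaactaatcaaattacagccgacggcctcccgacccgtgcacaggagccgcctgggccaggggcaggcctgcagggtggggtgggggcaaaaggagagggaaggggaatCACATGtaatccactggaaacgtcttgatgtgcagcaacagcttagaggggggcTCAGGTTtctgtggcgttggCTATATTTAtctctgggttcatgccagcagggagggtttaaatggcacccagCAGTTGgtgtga
Six4: tggcctgggggaAACCTGAtcggccagatc
Mef2a: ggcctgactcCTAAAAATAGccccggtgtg

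Motifs were searched on both strands. In the Myog stretch the capitals mark E-boxes (CANNTG) at -138 to -133 and -12 to -7 from the start, the MEF3 motif (TCAGGTT) at -84 to -78, and a Mef2 core (CTANNNNTA) at -64 to -56, and these 4 matches do not overlap each other. The full Mef2 motif had no match there, and the looser core was added after this was seen. In the same 250 bases of all 32851 promoter windows of the table, 66.2% held an E-box, 3.49% the MEF3 motif, 19% the Mef2 core and 0.527% all of these together. The Six4 window held the MEF3 motif on the strand opposite to the gene at -97 to -91, and the Mef2a window held the full Mef2 motif at -2 to 8. Over whole windows of 300 bases these motifs were in 4.07% and 1.86% of all windows. Of the 9 genes, 7 had a window in the table, with 10 windows in all. Those of Pitx3 held 2 E-boxes, and Mef2c held 2 E-boxes and a MEF3 motif in 1 of its 3 windows and an E-box in another. Those of Mef2a, Mef2d and Myf5 held neither an E-box nor the MEF3 motif, nor did the other Six4 window. The looser Mef2 core was also matched in the windows of Myf5 and Mef2a and in 1 of Mef2c. A match is a run of letters and says nothing about binding in these samples.

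Values are the authors' signal intensities, which are linear and scaled to a common level on each array. Values under 7.8, the floor, were set to it before log2, and a probe set was analysed further when 3 or more of its 6 values lay above 39.4, the overall median. Of the 15 probe sets 13 passed, for 8 of the 9 genes, and 12 of these exceeded 39.4 on all 6 arrays. The exception was Myog, which exceeded it on 3 of 3 knockout and 1 of 3 wild-type arrays, and so passed on its knockout values alone. Differences are knockout minus wild type on the log2 scale from limma, with standard errors (SE).

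In the knockout 10 of the 13 probe sets stood higher and 3 lower. The largest differences were those of Myog, Six4 and Pitx3, followed by Mef2c and Mef2a, while Myod1 and Myf6 stood lower. For 7 probe sets, of 4 genes, the groups did not overlap, 6 higher and 1 lower. Of all 6369 probe sets tested, 10.7% did not overlap (5.45% higher and 5.23% lower). At an adjusted p of 0.05, 0 of the 13 were called (limma), as were 0% of all probe sets, and at an unadjusted p under 0.05 there were 5 of the 13, all higher, against 5.24% of all probe sets (2.81% higher and 2.43% lower). Since some of the genes were chosen on this contrast, nothing is read from these counts.

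**Figure D1:**
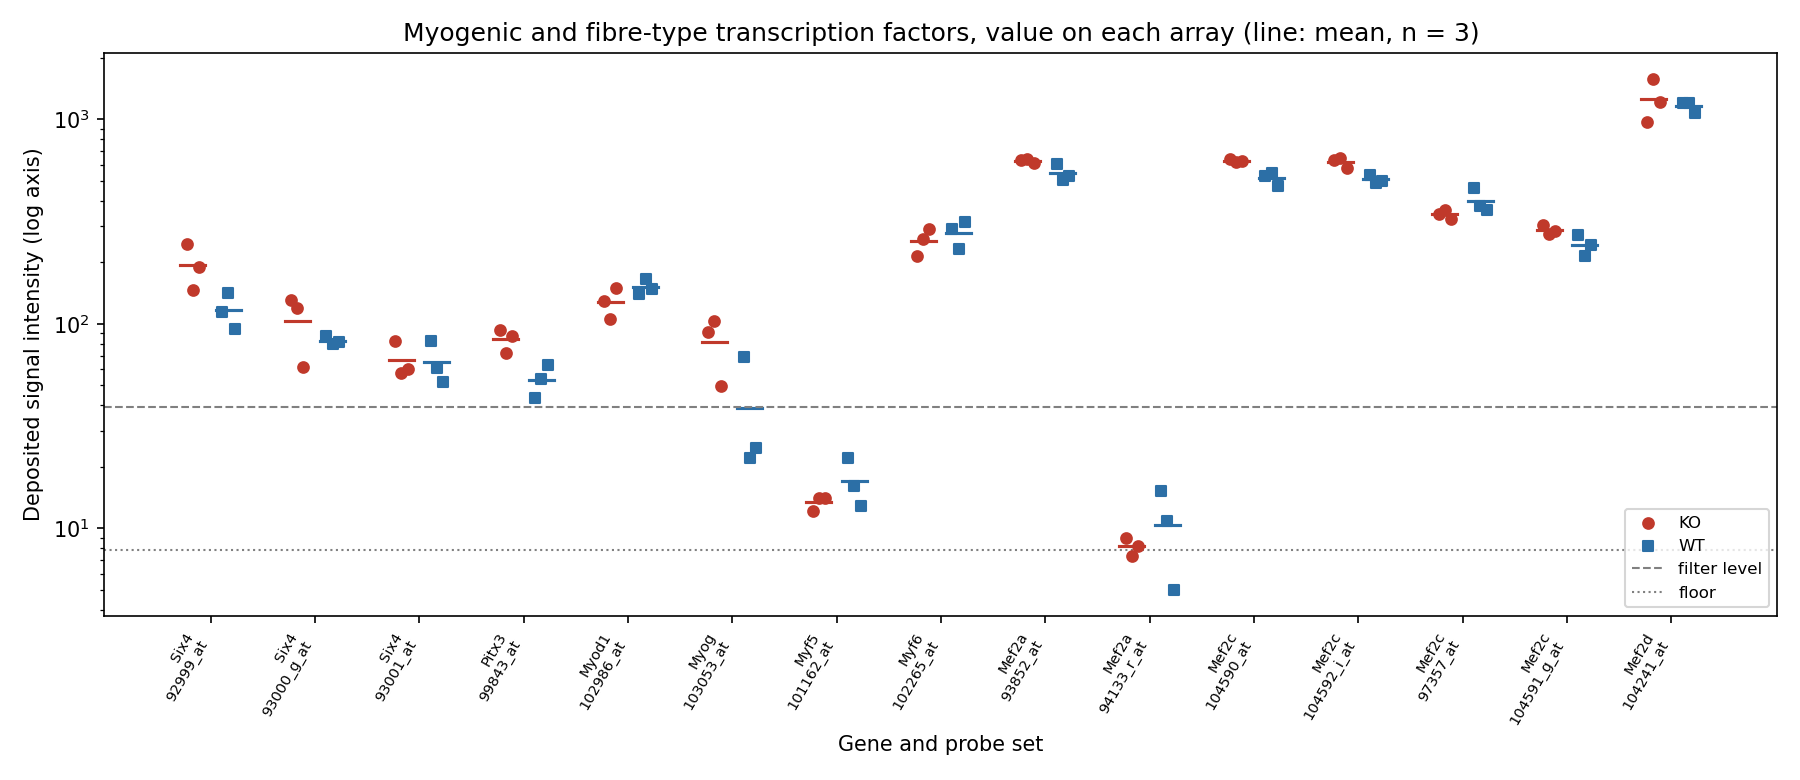
Deposited signal intensity (log axis) of the 15 probe sets on each of 3 knockout (circles) and 3 wild-type (squares) arrays, with group means as lines, the filter level dashed and the floor dotted. Six4 92999_at, Pitx3, Mef2a 93852_at and 3 Mef2c probe sets lie higher on every knockout array than on any wild-type array, and Myf5 and the lower Mef2a probe set stay under the filter level throughout.

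Six4, a homeobox protein that binds the MEF3 element of muscle genes, had 3 probe sets. The brightest, 92999_at, read 244.9, 146.4 and 190.4 in the knockout, against 113.9, 142.3 and 94.7 in wild type. Every knockout value lay above every wild-type value, but knockout replicate 2 exceeded wild-type replicate 2 by only a few units. The difference was 0.72 ± 0.22 (SE, n = 3 each), a ratio of 1.64.

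The other Six4 probe sets showed less. Probe set 93000_g_at, to which the annotation gives the same source sequence, read 130.8, 119.2 and 61.5 in the knockout, against 87.1, 79.9 and 81.5 in wild type. Knockout replicates 1 and 2 lay above all wild-type values and knockout replicate 3 below all of them, which gave a difference of 0.25 ± 0.26. It was 0.049 without knockout replicate 1 and 0.59 without knockout replicate 3. Probe set 93001_at, from another source sequence, read 82.2, 57.5 and 60.5 in the knockout, against 82.8, 61.1 and 52.0 in wild type. Here the groups covered the same range, with a difference of 0.04 ± 0.23. Within each array, the ratio of 92999_at to 93001_at was 2.98, 2.55 and 3.15 in the knockout, against 1.38, 2.33 and 1.82 in wild type. These ratios did not overlap between the groups. The ratio of 92999_at to 93000_g_at did overlap, at 1.87, 1.23 and 3.10 in the knockout, against 1.31, 1.78 and 1.16 in wild type. A single scaling factor per array cancels in such ratios, which were computed with the authors' scaling only. Since Six4 was chosen for a difference on this contrast, they are a description.

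Pitx3, known for its part in lens and midbrain dopamine neurons and also expressed in muscle fibres, had 1 probe set. It read 93.0, 72.2 and 86.9 in the knockout, against 43.5, 54.0 and 62.8 in wild type. The groups did not overlap, and the difference was 0.66 ± 0.20 (SE, n = 3 each), a ratio of 1.58. It ran from 0.52 without wild-type replicate 1 to 0.79 without wild-type replicate 3.

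In the MyoD family the 3 genes that passed the filter did not move alike. Myog, the factor that drives fusion and terminal differentiation, read 91.0, 103.6 and 49.6 in the knockout, against 69.2, 22.2 and 24.8 in wild type. Knockout replicate 3 lay below wild-type replicate 1, so the groups overlapped. The difference of 1.21 ± 0.45 (SE, n = 3 each) was the largest of the 13 and also had the largest SE. It was 1.73 without wild-type replicate 1 and 0.91 without wild-type replicate 2, and 2 of 3 wild-type values lay under the filter level, so its size is uncertain.

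Myod1, which commits cells to the muscle lineage, read 130.1, 105.5 and 150.3 in the knockout, against 139.6, 165.3 and 148.4 in wild type. Only knockout replicate 3 lay within the wild-type range, and the difference was -0.24 ± 0.16. It was -0.11 without knockout replicate 2. Myf6 (MRF4), the family member most expressed in adult fibres, read 214.0, 259.9 and 290.0 in the knockout, against 289.9, 231.9 and 316.7 in wild type, with groups that overlapped widely (-0.13 ± 0.16). Its difference was -0.014 without knockout replicate 1 and -0.26 without wild-type replicate 2. Myf5, the early factor of muscle precursors and the chromosomal neighbour of Myf6, read 12.2, 14.1 and 14.1 in the knockout, against 22, 16.2 and 12.9 in wild type. It was under the filter level on every array and was not tested. The within-array ratio of Myog to Myod1 was 0.699, 0.982 and 0.330 in the knockout, against 0.496, 0.134 and 0.167 in wild type, and overlapped through wild-type replicate 1 and knockout replicate 3.

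In the Mef2 family 5 of 6 probe sets that passed stood higher in the knockout, by small amounts, and the 4 probe sets of Mef2c did not point the same way. Probe sets of the same gene are not separate observations, and Mef2c 104590_at and 104591_g_at share a source sequence. For 104592_i_at the source sequence is not given, so it may not be a separate reading either. Mef2c, which is known to promote slow-fibre genes in the mouse, read 641.8, 619.2 and 625.8 in the knockout at probe set 104590_at, against 527.5, 549.8 and 469.8 in wild type. The knockout values were close together and all above wild type, with a difference of 0.29 ± 0.11 (SE, n = 3 each). Probe set 104592_i_at read 631.7, 646.4 and 576.1 in the knockout, against 534.4, 490.1 and 501.0 in wild type (0.28 ± 0.11). Probe set 104591_g_at read 304.1, 273.7 and 283.2 in the knockout, against 273.3, 215.7 and 243.1 in wild type (0.24 ± 0.13). In both the groups were apart, the last by less than 1 unit, and its difference was 0.15 without wild-type replicate 2.

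The remaining Mef2c probe set, 97357_at, read 343.2, 359.8 and 326.0 in the knockout, against 459.8, 378.2 and 361.5 in wild type. Here every knockout value lay below every wild-type value, by less than 2 units at the nearest, and the difference was -0.21 ± 0.13. It was -0.11 without wild-type replicate 1. Its source sequence differs from that of 104590_at and 104591_g_at, and the part of the transcript it reads is not known here. The within-array ratio of 97357_at to 104590_at was 0.535, 0.581 and 0.521 in the knockout, against 0.872, 0.688 and 0.769 in wild type. The ratios to 104592_i_at (0.543 to 0.566 in the knockout, 0.722 to 0.860 in wild type) and to 104591_g_at (1.13 to 1.31 in the knockout, 1.49 to 1.75 in wild type) were apart in the same direction. The ratio of 104590_at to 104592_i_at overlapped, at 0.958 to 1.09 in the knockout and 0.938 to 1.12 in wild type. The first 3 of these ratios restate, array by array, that 97357_at stood lower and the others higher in the knockout.

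**Figure D2:**
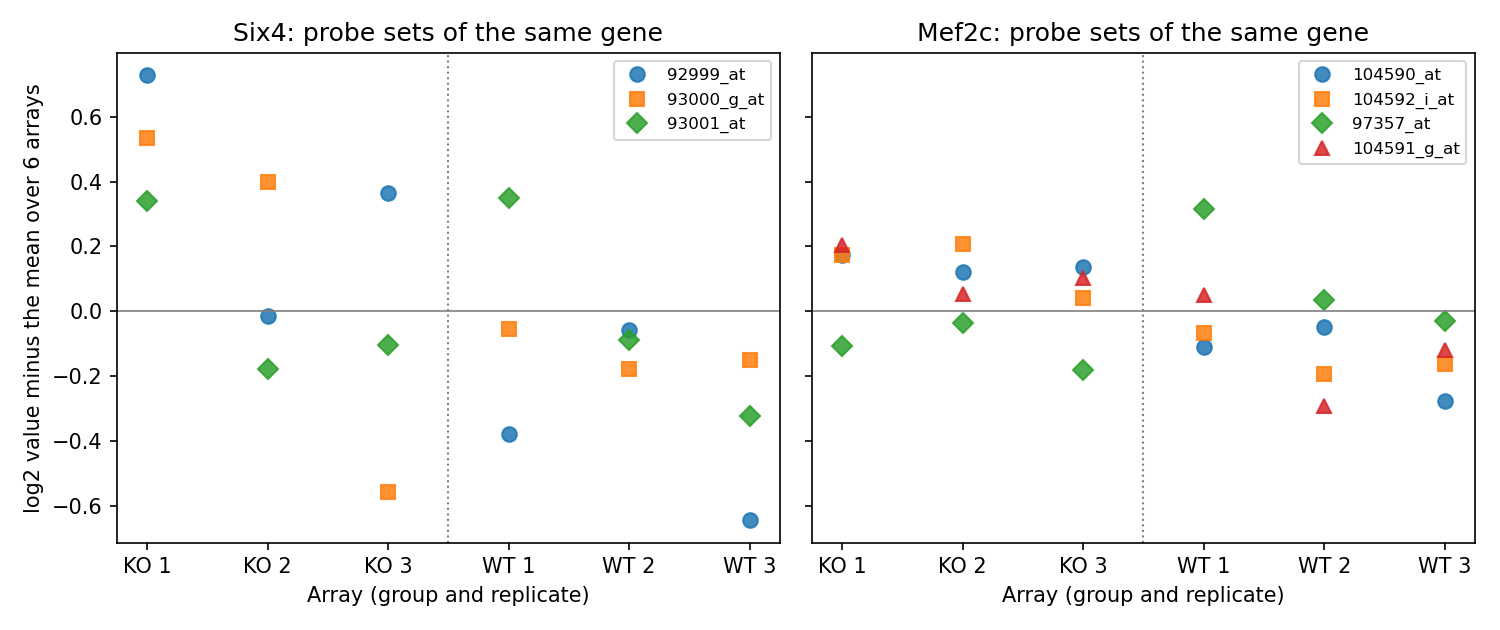
Deviation of each probe set of Six4 (left) and Mef2c (right) from its own mean over 6 arrays (log2), by array, knockout left of wild type. Mef2c 104590_at and 104592_i_at lie on the same side of their means on 6 of 6 arrays, while 97357_at shares a side with 104590_at on 1 of 6, and the Six4 pairs share a side on 4 of 6.

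Mef2a, the Mef2 member known from heart and from differentiating muscle, read 631.1, 638.6 and 614.2 in the knockout at probe set 93852_at, against 602.5, 506.2 and 529.2 in wild type. The groups were apart, with a difference of 0.21 ± 0.11 (SE, n = 3 each) and wild-type replicate 1 nearest to the knockout. Its other probe set, 94133_r_at, whose suffix marks relaxed rules of probe choice, read 9.0, 7.3 and 8.2 in the knockout, against 15.2, 10.9 and 5.0 in wild type. It was near the floor and was not tested. Mef2d, which is known to switch to a muscle-specific splice form during differentiation, read 975.5, 1583.6 and 1212.1 in the knockout, against 1202.6, 1206.1 and 1074.0 in wild type. Knockout replicate 1 lay below all wild-type values and knockout replicates 2 and 3 above them, and the difference was 0.09 ± 0.16. It turned to -0.092 without knockout replicate 2 and was 0.26 without knockout replicate 1.

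**Figure D3:**
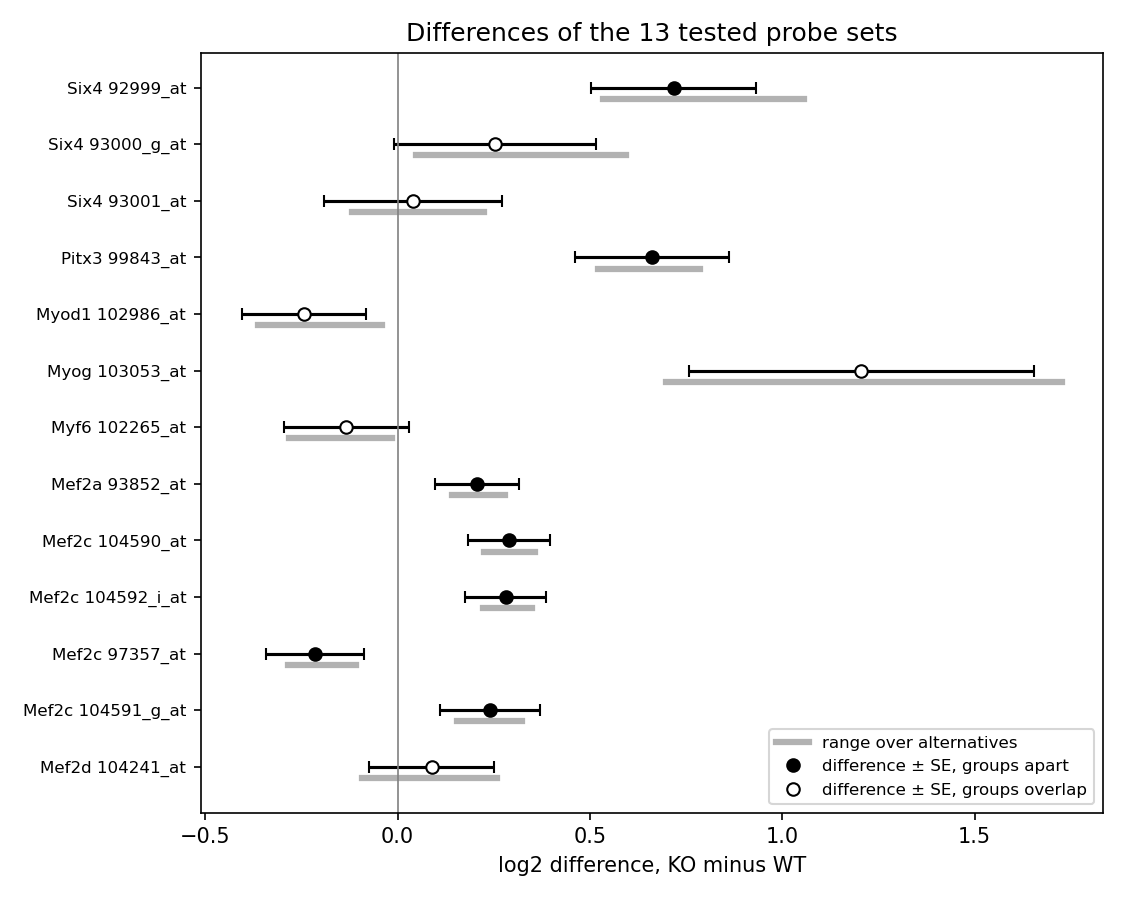
Log2 difference (knockout minus wild type) with its SE for the 13 probe sets tested, filled where the groups did not overlap, with the range over up to 18 alternative settings as a grey bar. The bars of Mef2d and Six4 93001_at cross 0, and those of the other 11 probe sets do not.

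Facts of the whole set of arrays bear on these values. The Esr2 probe set read 3.9 to 8.4 in the knockout and 1.3 to 3.2 in wild type, at or near the floor, so the targeted gene could not be checked. The titles share 1 prefix on 4 arrays and another on replicate 2 of each group. Over the 4 arrays alone, the differences were 1.06 for Six4 92999_at, 0.78 for Pitx3, 0.70 for Myog, 0.35 for Mef2c 104590_at, -0.29 for Mef2c 97357_at, 0.14 for Mef2a and -0.042 for Myod1. Between the 2 arrays of the other prefix they were 0.04 for Six4 92999_at, 0.42 for Pitx3, 2.22 for Myog, 0.17 for Mef2c 104590_at, -0.07 for Mef2c 97357_at, 0.34 for Mef2a and -0.65 for Myod1. These 7 probe sets had the same direction in both prefixes, with sizes that differed most for Myog and Six4. Myf6 (-0.28 over the 4 arrays and 0.16 over the other pair), Mef2d (-0.064 and 0.39) and Six4 93001_at (0.10 and -0.088) did not.

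The difference also went with signal over all probe sets, from a median of -0.081 in the dimmest to 0.054 in the brightest of 5 equal groups of probe sets. Mef2a 93852_at and 3 of the 4 tested Mef2c probe sets lie in the brightest of these groups, and against its median Mef2c 104590_at stood at 0.24, Mef2a at 0.15 and Mef2c 97357_at at -0.27. After cyclic loess, which takes such a trend out, Mef2c 104590_at stood at 0.24 and 104592_i_at at 0.24 with groups apart, and Mef2a at 0.16 and Mef2c 104591_g_at at 0.23 with groups that overlapped. The groups of 104591_g_at also overlapped after quantile normalization (0.23). With median scaling 97357_at stood at -0.15 and its groups overlapped. Pitx3 and Six4 92999_at were apart under all 3 other scalings, at 0.72 to 0.73 and 0.73 to 0.78.

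Partners and targets of these factors were read from 6 gene lists, each gene by its brightest probe set. These lists were made with earlier results of these data known. In the same limma fit 0 genes of any list were called, and the smallest adjusted p of any list gene was 0.923. For the whole set of 4921 genes tested, the median difference was -0.012, and 2340 were higher. Groups were apart for 524 of these genes (5.55% higher and 5.1% lower), and 2.93% were higher and 2.26% lower at an unadjusted p under 0.05.

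Among 36 tested genes known as targets of the MyoD or Mef2 families, 31 stood higher in the knockout, with a median difference of 0.18. Groups were apart for 12, all higher, and 13, also all higher, had an unadjusted p under 0.05, where 5.55% and 2.93% of all genes did so. These 2 counts are given with the authors' scaling only, and the shares cover genes of every signal level. The calcium store protein Casq1 read 3559, 3743 and 3712 in the knockout, against 2702, 3228 and 2379 in wild type. The fast light chain Myl1 differed by 0.27 ± 0.08, fast troponin T, Tnnt3, by 0.24 ± 0.07 and the muscle cytochrome oxidase subunit Cox6a2 by 0.27 ± 0.08 (SE, n = 3 each). The lowest was Chrna1, the acetylcholine receptor alpha subunit, at -0.40. Most of these genes are bright, and the list followed the scaling: 23 of 36 were higher after quantile normalization (median 0.040), 28 after cyclic loess (0.070) and 34 with median scaling (0.25), where 50.4%, 49.5% and 60.9% of all probe sets were higher, against 46.8% with the authors' scaling.

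Of 26 tested partners and antagonists of the MyoD and Mef2 families, 10 stood higher and 16 lower, with a median of -0.056, and 0 had an unadjusted p under 0.05. The retinoblastoma protein gene Rb1, whose product works with MyoD in cell-cycle exit, read 22.4, 40 and 26.3 in the knockout, against 45.1, 40.8 and 57.2 in wild type. Groups were apart only narrowly, at 40 against 40.8. All wild-type values lay above the filter level, so Rb1 passed on these, and the knockout values 22.4 and 26.3 lay under it. The Notch effector Hey1 stood at -0.35 ± 0.18, the class II deacetylase Hdac5 at 0.24 ± 0.14 and the stretch-responsive Ankrd1 at 0.49 ± 0.29, all with groups that overlapped.

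Other homeobox regulators stood on both sides of 0. Of 8 tested genes 3 were higher and 5 lower, with a median of -0.059, and the groups overlapped for all 8. Eya1, a cofactor of Six4 and its relatives, stood at -0.27 ± 0.18 and Eya2 at 0.15 ± 0.23. Pitx1, of the same family as Pitx3, read 57.3, 51.3 and 43.1 in the knockout, against 48.2, 58.0 and 64.5 in wild type (-0.17 ± 0.22). Msx1, a repressor of Myod1, stood at -0.37 ± 0.46.

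Of 21 fibre-type and activity regulators 16 stood higher, with a median of 0.05, and 2, both higher, had an unadjusted p under 0.05, against 2.93% of all genes. Nfatc1, the calcineurin target that maintains slow fibres, read 78.6, 80.9 and 71.2 in the knockout, against 68.8, 59.9 and 54.0 in wild type, with groups apart (0.34 ± 0.17). The LIM protein Fhl1 stood at 0.33 ± 0.10 with groups apart, and Csrp3, a Z-disc LIM protein and partner of MyoD, at 0.83 ± 0.34 with groups that overlapped. The nuclear receptor Nr4a1, an early response gene, stood at -0.41 ± 0.22 with groups apart by less than 1 unit, where wild-type replicate 1 read 411.0 and the other 5 arrays 196.7 to 243.2.

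Genes known to respond to loss of the nerve, not all of them by an increase, stood on both sides of 0: 6 of 11 were higher, with a median of 0.11. Ache, the acetylcholinesterase of the junction, stood at 1.44 ± 0.39 and the adhesion molecule Ncam1 at 0.74 ± 0.21, both with groups apart. The metallothionein Mt2 stood at -0.48 ± 0.25 and Chrna1, also on this list, at -0.40 ± 0.24, both with groups that overlapped. Wild-type values of Ache lay under the filter level on 3 of 3 arrays and those of Ncam1 on 2 of 3, so both passed on their knockout values. Another Ncam1 probe set read 39.5, 19.6 and 34.3 in the knockout, against 37.1, 15.9 and 42.2 in wild type, with groups that overlapped. The fetal receptor subunit Chrng, a target of Myog, read 5.0 to 14.8 in the knockout and 11 to 25.6 in wild type over its 2 probe sets, under the filter level on every array. Among satellite and regenerating muscle genes 6 of 11 were higher, with a median of 0.077. Besides Ncam1, the intermediate filament nestin, Nes, stood at 0.35 ± 0.15, Cd34 at -0.27 ± 0.15 and the replication clamp Pcna at -0.25 ± 0.16, each with groups that overlapped. Cdh15, the satellite cell cadherin, read 54.1 to 65.9 in the knockout and 54.7 to 61.3 in wild type, and the embryonic heavy chain Myh3 30.2 to 44.9 in the knockout and 30.2 to 36.7 in wild type. The median of the denervation list turned to -0.088 with the filter at the 70th percentile. With single arrays left out it ran from -0.081 to 0.31, and was below 0 without any 1 of the knockout arrays or wild-type replicate 3. That of the satellite list ran from -0.055 (without wild-type replicate 2) to 0.072, and that of the homeobox list from -0.13 (without wild-type replicate 2) to 0.012 (without wild-type replicate 1).

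**Figure D4:**
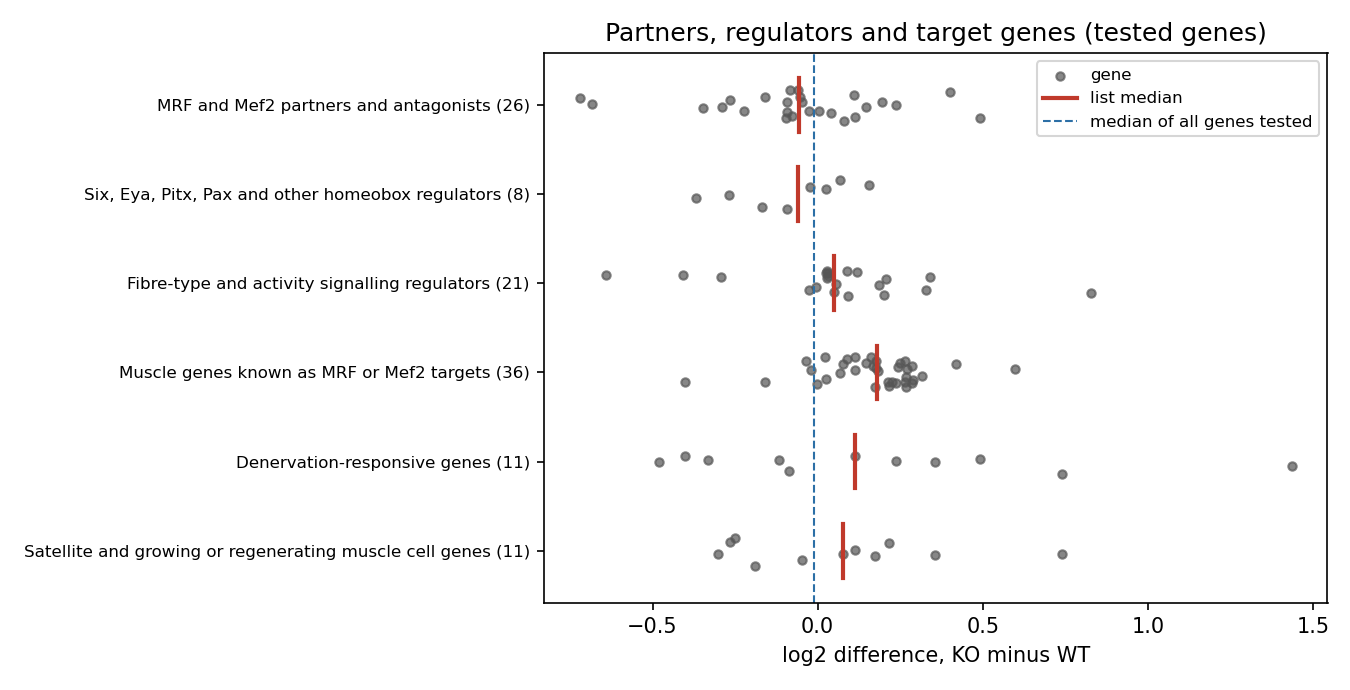
Log2 difference (knockout minus wild type) of each tested gene of the 6 lists (points), with list medians (bars) and the median of all genes tested (dashed, -0.012). The target list lies mostly right of 0 with a median of 0.18, and the homeobox list spreads on both sides of 0.

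The genes whose values ran most like those of a member over the 6 arrays were also listed, by Pearson's r of log2 values, as a description only. For Six4 92999_at these were Cfdp1 (r = 0.979), Sox10 (0.976) and Slc66a2 (0.962), for Pitx3 they were Myl1 (0.994), Sec13 (0.991) and Rpl19 (0.987), for Myog Amot (0.984), Frmd6 (0.980) and Jmjd6 (0.974), and for Mef2c 104590_at Atp5pb (0.983), Gipc1 (0.975) and Vac14 (0.973). All points share the arrays and their scaling, and 25 to 65 other probe sets reached an r over 0.9 with each of these 4. An r over all 6 arrays also includes the difference between the groups, for which Six4, Pitx3 and Myog were chosen. Every gene named here stood higher in the knockout, from 0.12 for Gipc1 to 0.55 for Cfdp1. Myl1 is also on the target list.

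Fewer cells of a type and less RNA per cell cannot be told apart in whole muscle. The summed level of the 14 fibre markers was 86401 to 93738 in the knockout and 71103 to 90485 in wild type, so it overlapped between the groups. It pools slow and fast genes and measures neither alone. Fast heavy chain Myh4 read 211, 790.7 and 73.8 in the knockout, against 1610, 3670.9 and 499.4 in wild type. Its groups overlapped, and its difference of -2.64 was the lowest of all 4921 genes tested. Myh4 was not called in this fit, but was with adjacent title numbers as a replicate block. Pvalb read 905.4 to 2072.5 in the knockout and 1137.3 to 2737.6 in wild type, while Tnni2 and Tnnt3 stood higher in the knockout. Summed endothelial markers (8 of 8 on the array) read 1273 to 1316 in the knockout and 1186 to 1391 in wild type, smooth muscle and pericyte markers (7 of 7) 1402 to 1546 in the knockout and 1367 to 1502 in wild type, macrophage and leukocyte markers (9 of 9) 556 to 681 in the knockout and 583 to 868 in wild type, and fibroblast and tendon markers (8 of 9) 6105 to 6546 in the knockout and 5503 to 6851 in wild type. The smooth muscle and pericyte sum includes desmin, Des, which is also on the muscle target list. Des alone read 571 to 665 in the knockout and 566.8 to 608.7 in wild type, so this sum is not particular to smooth muscle and pericytes. Adipocyte markers (4 of 6) read 365 to 395 in the knockout and 394 to 629 in wild type, and Schwann and nerve markers (5 of 7) 362 to 442 in the knockout and 377 to 489 in wild type. The 2 blood markers on the array read 2087 to 2328 in the knockout and 1704 to 4667 in wild type, with the highest sum on wild-type replicate 1, the array that also had the highest wild-type Myog. The part of other cells in these results was not tested.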

How the data were processed

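The deposited values are signal intensities of Affymetrix mouse probe sets, scaled by the authors: the mean without the lowest and highest 2% of values is 100.07 to 100.08 on every array. The software behind them was not named in the labels or the file, and no probe-level values were used. Arrays correlated at r between 0.948 and 0.966 across tested probe sets. Of 12488 probe sets 66 controls were set aside, and 10833 had exactly 1 symbol in the annotation of the array design. Intensities were floored at the 20th percentile (7.8) and taken to log2. The 6369 probe sets above the median (39.4) on at least 3 arrays were fitted with limma 3.58.1 in R 4.3.3 (eBayes with an intensity trend, two-sided, Benjamini-Hochberg adjustment over all of them). Precision is limited by the 3 arrays per group, with a median SE of 0.18, and the smallest p of an exact permutation test in this design is 0.1. Members, lists and the rule for named genes (all members, up to 4 genes per list by smallest p, 3 most similar genes for 4 members) were chosen with earlier results of these data known. The promoter table is RefSeq's, of build GRCm38.p6. The fit was tested on simulated data. Replicate numbers follow the order of the accessions. The alternatives were 3 normalizations, 2 floors, 2 filters, no trend, array weights, the title prefix and adjacent title numbers as blocks, and each array left out. The fit of 4 arrays sharing a prefix was added after seeing the data. Plots were made in Python 3.11.15 (matplotlib 3.10.9).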

Additional observations from a re-analysis of the deposited data

How the results depend on the processing

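Of 230 values of the 13 tested probe sets under 18 alternatives, 5 turned the direction and 2 others moved by more than the SD between replicates. Mef2d turned to -0.092 without knockout replicate 2 and to -0.064 over the 4 arrays sharing a title prefix. Six4 93001_at turned to -0.12 without knockout replicate 1, -0.11 without wild-type replicate 3 and -0.0077 with array weights. When single arrays were left out, Mef2d ran from -0.092 to 0.26 and Six4 93001_at from -0.12 to 0.23. Over those 4 arrays Six4 92999_at moved to 1.06 and Myod1 to -0.042. The cause was not tested. With limma 0 of the 9 genes' probe sets were called under any alternative. Over all probe sets 1 was called without the filter (Hoxd1) and 1 with adjacent title numbers as a replicate block (Myh4), and 0 to 1 when single arrays were left out (Tuba1a without knockout replicate 1). Same-numbered arrays did not deviate together (r = -0.0052, 0.035 and -0.0029 across probe sets), so they were not treated as pairs. Same-numbered arrays also have adjacent title numbers, and replicate 2 of each group shares a title prefix of its own. The block changed no call of the 9 genes or of a list gene, but Myh4, whose values are given above, was called only with it. The median of the target list moved to 0.040 with quantile normalization and 0.070 with cyclic loess. That of the homeobox list moved to -0.27 with the filter at the 70th percentile, which left 1 gene. No list gene was called under any alternative. Near the floor, as for Myf5 and Mef2a 94133_r_at, signal over background limits what can be measured.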
